A study of Mus musculus with 2 samples.

Results

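Secreted epithelial defence proteins, measured here as transcripts, are the antiproteases, iron binders, antibody carriers, microbe-binding proteins and mucins that moist epithelia put out at their surface. The 10 genes described here, Slpi, Lcn2, Ltf, Pigr, Dmbt1, Muc3, Muc1, Wfdc2, Wfdc18 and Reg3g, were taken by name, with every probe set annotated to that symbol alone. They hold 11 of the 20380 single-symbol probe sets on the array, and are 10 of 12393 genes. All 10 genes were above a signal floor of 26.0 in both samples, the 90th percentile of probe sets for odorant, taste and similar receptors taken to be silent in these tissues. A fold against a signal under that floor is a bound, written "at least". The list was chosen by the log2 difference in signal between these same arrays, so every value below is a description.

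Transcript levels were read on Affymetrix mouse arrays from teratomas, the growths of many differentiated tissues that transplanted pluripotent cells form. The first array was hybridised with RNA of tumours grown from embryonic stem (ES) cells of the strain C57BL/6 (B6), called ES tumours here. The second was hybridised with RNA of tumours grown from EiPS cells, induced pluripotent stem cells of that strain whose source label names only the line 1E12. The submitters describe these EiPS tumours as regressing. Either kind of cell was injected subcutaneously into male mice of the B6 strain, growths were excised at week 6, and each array received pooled RNA from 2 of them. No modified allele, agent or host age is given for either group. With 1 array per group there is no replicate check and no test. The comparison asks how regressing EiPS tumours differ from ES tumours in syngeneic hosts, and the values compare these 2 pools of tumours.

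As background, epithelia of the gut, airway, glands and reproductive tract defend their surface with proteins released into mucus, milk, tears and saliva. Some starve microbes of iron, some bind or kill them, some restrain the proteases of incoming neutrophils, and the polymeric immunoglobulin receptor carries antibody across the cell. Many of these genes are switched on by inflammatory cytokines, and several are also made by neutrophils. Pigr, Muc1 and Muc3 encode membrane-anchored proteins whose outer parts can be shed, so the word secreted covers them only in that sense.

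Of the 10 genes, 6 had signals higher by 2-fold or more in the EiPS tumours, namely Lcn2, Slpi, Pigr, Muc3, Dmbt1 and Ltf, and 3 of these (Lcn2, Slpi and Pigr) were higher by 4-fold or more. Muc1, Wfdc2, Reg3g and Wfdc18 were within 2-fold, with Wfdc18 on the edge of it in the opposite direction. The median log2 difference (EiPS tumours less ES tumours) was 1.64 over the 10 genes and 0.07 over the 10953 genes compared. Among all those genes, 5.79% were higher by 2-fold or more, 0.822% by 4-fold or more, and 3.05% were lower by 2-fold or more in the EiPS tumours, while 56.2% were higher by any amount. In numbers, 634 genes were higher and 334 lower by 2-fold or more, and this split was 485 and 431 after quantile normalization and 506 and 458 with equal medians. These shares stand beside the members' counts only as background, because the genes were listed with the same difference in view. In such bulk samples, fewer cells of a type and less RNA per cell cannot be told apart.

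**Figure D1:**
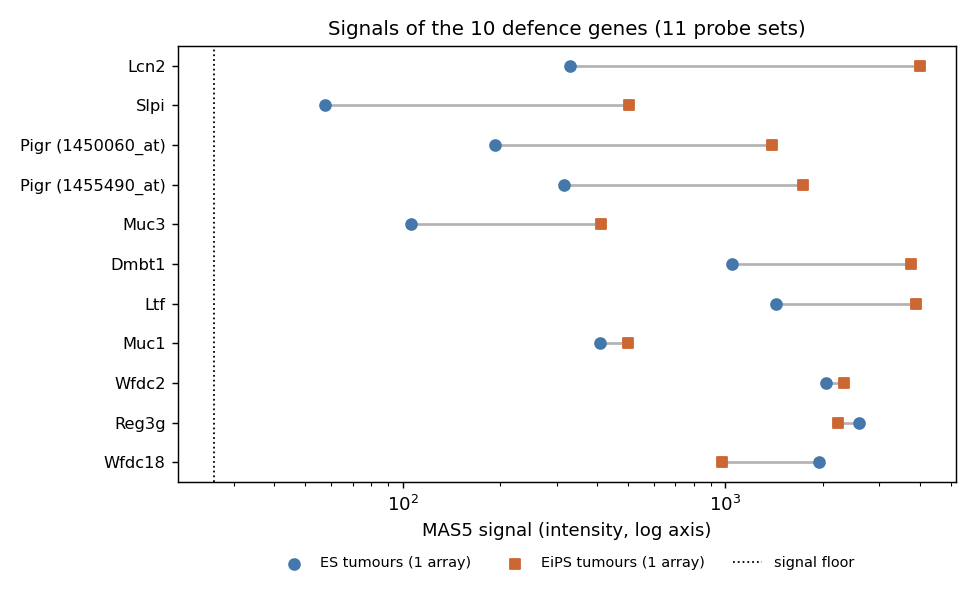
MAS5 signal (log axis) of each of the 11 probe sets in the ES tumours (circles) and the EiPS tumours (squares), 1 array each, with the signal floor dotted. Lcn2 spans 330 to 4013 and Slpi 57.6 to 504, while Muc1, Wfdc2 and Reg3g nearly coincide and Wfdc18 is lower in the EiPS tumours.

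The only gauge of measurement noise in these arrays is the spread between probe sets of the same gene. Its SD was 0.40 on the log2 scale over 3799 genes. It was 0.54 at mean signals under 100, 0.34 from 100 to 1000 and 0.19 above 1000, and it leaves out all variation between tumours, labellings and arrays. The differences of 7 members were larger than 0.40, and those of Muc1, Wfdc2 and Reg3g were smaller.

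The 3 antiprotease-type genes, which share the cysteine-rich whey acidic protein (WAP) domain, did not go together. Slpi encodes secretory leukocyte protease inhibitor, which blocks neutrophil elastase and has antimicrobial activity. Its signal was 57.6 in the ES tumours and 504 in the EiPS tumours, 8.76-fold higher in the latter (log2 difference 3.13, rank 20 from the highest of 10953 genes). Because the signal in the ES tumours was low, the size of the difference depends on how low signals are treated, and with a floor of 100 it was a bound of 2.33 on the log2 scale. Wfdc2 (HE4), a WAP protein of airway, salivary and reproductive tract epithelium, had signals of 2048 and 2333, a log2 difference of 0.19. Wfdc18, an extracellular proteinase inhibitor known from the mammary gland, had 1955 in the ES tumours and 980 in the EiPS tumours, 1.996-fold lower in the latter. Its log2 difference of -0.997 lies just inside the 2-fold line, and scaling the arrays to equal medians put it at -1.12. The Wfdc18 probe set carries the suffix _s_at, which marks probe sets that can match several transcripts. The only probe sets of Lcn2 and Dmbt1 carry the suffix _a_at, and the setting without such probe sets gave no value for these genes either.

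Both iron-withholding genes were higher in the EiPS tumours. Lcn2 encodes lipocalin 2, which captures the siderophores that bacteria use to collect iron. Its signal was 330 in the ES tumours against 4013 in the EiPS tumours, 12.1-fold higher in the latter (log2 difference 3.60, rank 9 of 10953 genes). Ltf encodes lactoferrin, an iron-binding protein of milk, tears and neutrophil granules. It was well above the floor in both, with signals of 1434 and 3901, and was 2.72-fold higher in the EiPS tumours (1.44 on the log2 scale, rank 253).

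Pigr encodes the polymeric immunoglobulin receptor, which carries dimeric IgA and IgM across epithelial cells and releases them with its cleaved outer part. It is the only member with 2 probe sets, and both were higher in the EiPS tumours. The brighter had signals of 316 in the ES tumours and 1735 in the EiPS tumours (5.50-fold), and the other had 193 and 1393 (7.22-fold). The 2 log2 differences, 2.46 and 2.85, lay 0.39 apart, about the SD between probe sets of a gene.

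Of the microbe-binding genes, Dmbt1 was higher in the EiPS tumours and Reg3g was nearly level. Dmbt1, a large scavenger receptor cysteine-rich glycoprotein of saliva and gut that aggregates bacteria, had signals of 1050 and 3771, a 3.59-fold difference (1.84 on the log2 scale, rank 110). Reg3g, a C-type lectin that kills Gram-positive bacteria at the gut and airway surface, had 2585 in the ES tumours and 2231 in the EiPS tumours. Its log2 difference of -0.21 was close in size to the SD of 0.19 between bright probe sets. Of the mucins that line the apical membrane, the intestinal Muc3 had signals of 106 and 411, 3.88-fold higher in the EiPS tumours (1.96, rank 95). Muc1, which is made by most glandular epithelia, had signals of 408 and 500, a log2 difference of 0.30.

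**Figure D2:**
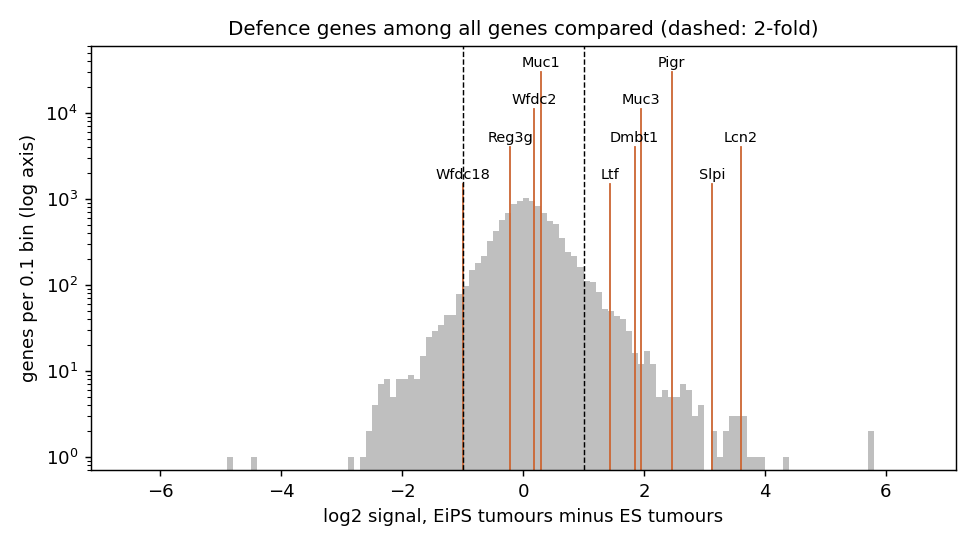
Distribution of the log2 difference (EiPS tumours minus ES tumours) over the 10953 genes compared (grey, log count axis), with the 10 members as vertical lines and 2-fold as dashed lines. Lcn2 (3.60), Slpi (3.13) and Pigr (2.46) lie in the thin upper tail, 3 members sit near 0, and Wfdc18 (-0.997) lies on the lower 2-fold line.

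The RefSeq promoter table (GRCm38.p6) held an entry for 9 of the 10 members, all but Dmbt1, and the 250 bases before each start were searched on both strands for letters known from the binding sites of inflammation-related factors. The letters TTGCNNAA, of C/EBP type, were found in 3 of the 9 (Slpi, Lcn2 and Ltf), and in 9.55% of the 27025 promoters in the table. A motif of NF-kB type (in 1.17% of all promoters) and the letters TTCNNNGAA of STAT type (in 7.18%) were in none of the 9, which says only that they are not in these windows. Besides the 3 genes with a match, Wfdc18 is included as the member with the lowest difference. The upstream sequences are shown 5′ to 3′ on the strand of the gene, with the matched letters in capitals. They lie at chr2:32387740-32387989 (minus strand) for Lcn2, chr2:164356508-164356757 (minus) for Slpi, chr9:111019042-111019291 (plus) for Ltf and chr11:83708754-83709003 (plus) for Wfdc18.
Lcn2: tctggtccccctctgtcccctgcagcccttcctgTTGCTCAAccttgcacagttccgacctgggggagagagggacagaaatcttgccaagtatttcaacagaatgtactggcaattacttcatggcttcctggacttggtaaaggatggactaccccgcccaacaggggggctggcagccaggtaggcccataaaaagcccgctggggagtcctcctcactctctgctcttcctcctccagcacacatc
Slpi: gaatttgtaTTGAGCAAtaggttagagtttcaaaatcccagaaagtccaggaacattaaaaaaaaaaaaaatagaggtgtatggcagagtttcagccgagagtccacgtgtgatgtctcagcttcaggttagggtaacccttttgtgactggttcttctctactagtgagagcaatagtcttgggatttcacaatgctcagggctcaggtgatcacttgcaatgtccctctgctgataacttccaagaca
Ltf: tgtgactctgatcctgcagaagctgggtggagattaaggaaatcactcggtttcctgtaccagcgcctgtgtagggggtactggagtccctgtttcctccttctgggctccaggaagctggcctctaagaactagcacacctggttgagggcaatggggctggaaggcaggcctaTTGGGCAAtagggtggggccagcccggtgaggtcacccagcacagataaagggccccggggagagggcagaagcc
Wfdc18: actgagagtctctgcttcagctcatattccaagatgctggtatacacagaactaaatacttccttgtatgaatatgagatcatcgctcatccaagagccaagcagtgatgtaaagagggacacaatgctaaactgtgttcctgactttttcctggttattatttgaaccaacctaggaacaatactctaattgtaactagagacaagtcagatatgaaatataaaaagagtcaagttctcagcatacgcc
Counted from the start site, the match lay at -216 to -209 in Lcn2, at -241 to -234 in Slpi and at -75 to -68 in Ltf. No match overlapped that of another motif. A match of letters is a description and was not tested as a binding site. The 3 genes with a match were 12.1-fold, 8.76-fold and 2.72-fold higher in the EiPS tumours, while Pigr and Muc3 were higher without one. Muc1, Wfdc2, Reg3g and Wfdc18 had no match either.

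Relatives of the members were read from family lists. Among the Reg lectins, 3 of 5 compared genes were higher by 2-fold or more in the EiPS tumours, unlike Reg3g. Reg4, of intestinal secretory cells, had signals of 44.5 and 199 (4.47-fold), and Reg1 had 114 and 502 (4.41-fold). Reg3b, a close relative of Reg3g, was 2.69-fold higher by its brighter probe set (675 and 1816), but its other probe set differed by only 0.29 on the log2 scale. Reg2 had signals of 29.4 and 47.2, and Reg3a was under the floor in both. The median of the 5 was 1.43, beside 0.07 for all genes compared, and was 0.86 with probe sets averaged and 2.02 with a higher floor, from the receptors' 98th percentile.

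Other WAP-domain genes had low signals. Of 7 with a probe set, Wap (whey acidic protein of milk) and Eppin (an epididymal inhibitor) were under the floor in both, and the other 5 had a median of 0.31, which turned to -0.12 with a floor of 100 and -0.34 with no floor. Wfdc21, next to Wfdc18 on the chromosome, had signals of 20.7 and 52.6 and so was at least 2.03-fold higher, opposite to its neighbour. Wfdc5 was at least 1.84-fold higher, and Wfdc15b (51.6 and 34.0) and Wfdc1 (151 and 104) were lower. Among 7 other mucin-type genes the membrane mucin Muc13 was 2.13-fold higher (263 and 559) by a probe set with the suffix _s_at, while its other probe set differed by 0.51 on the log2 scale, and none was 2-fold lower. Muc4 had signals of 28.0 and 49.7, the gel-forming stomach mucin Muc5ac 90.5 and 53.3, and the endothelial sialomucin Emcn 359 and 453. Their median was -0.07, and 0.04 with a floor of 100 or 0.21 with probe sets averaged, so no direction is given for the list.

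**Figure D3:**
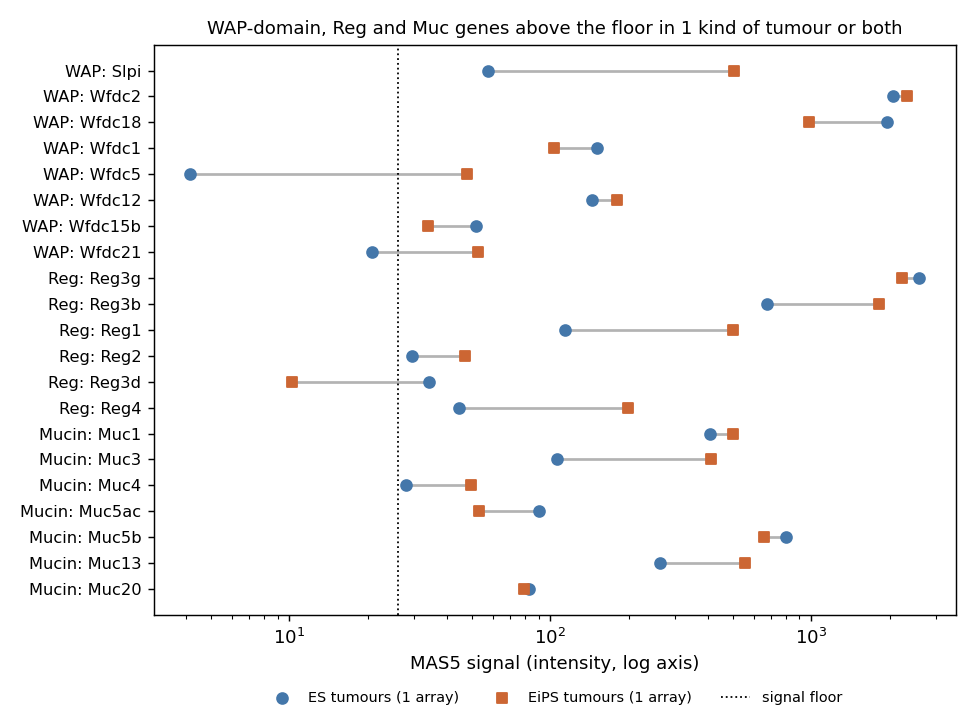
MAS5 signal (log axis) of the WAP-domain, Reg and Muc genes above the floor (dotted) in 1 kind of tumour or both, for the ES tumours (circles) and the EiPS tumours (squares). Reg1, Reg3b and Reg4 are higher in the EiPS tumours while Reg3g is not, and Slpi and Wfdc18 lie on opposite sides.

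Secreted proteins that act beside the members at mucosal surfaces were mostly higher in the EiPS tumours. The lists share genes, so their counts are not separate observations. Among the shared genes, Tff3, Clca1 and Lgals4 are also intestinal markers, and Tff1 and Tff2 stomach markers. Sftpa1, Bpifa1 and Sftpd are also airway markers, and S100a9 and Lrg1 neutrophil markers. Further genes are shared as well, such as Lyz1 and Lyz2. A mixed list of scavenger receptor and mucus-network proteins had 14 compared genes. Of these, 13 were higher by any amount (56.2% of all genes) and 9 higher by 2-fold or more, with a median of 1.19. The scavenger receptor cysteine-rich genes Cd5l and Lgals3bp were not among those 9, with log2 differences of 0.46 and 0.36. Cd163 was under the floor in both. Zg16, a lectin of goblet cell granules, had signals of 45.2 and 2381, and the trefoil peptide Tff3 331 and 2299 (6.95-fold). Clca1, a secreted goblet cell protein, was 4.202-fold and the stomach trefoil peptide Tff1 3.202-fold higher. Of 18 other antimicrobial genes, 6 were higher by 2-fold or more and 1 lower by 2-fold or more, with a median of 0.75. S100a9, a subunit of calprotectin, was 5.999-fold higher (55.2 and 331), the beta-defensin Defb4 at least 4.68-fold and the surfactant protein Sftpa1 at least 3.06-fold. Retnla, a resistin-like protein, was 4.93-fold lower (143 and 29.0).

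A list of Pigr ligands, genes of antibody-secreting cells and related receptors and cytokines had 9 compared genes. All 9 were higher, 3 of them by 2-fold or more, with a median of 0.76, while 56.2% of all genes were higher by any amount. The differences of Xbp1 (0.30), Fcgrt (0.30), Ccr10 (a bound of 0.24) and Prdm1 (0.11) were smaller than the SD of 0.40 between probe sets. That median was 0.28 without probe sets that can match several transcripts and 0.35 with log2(signal + 64), and of the 4 probe sets of Xbp1, a plasma cell factor counted among the 9, the lowest differed by -0.19. Igha, the IgA heavy chain that Pigr carries, had signals of 140 and 487 (3.47-fold), with its 3 probe sets between 1.79 and 2.52 on the log2 scale. Ighm, the IgM heavy chain, had 101 and 293, and Sdc1, a proteoglycan of plasma cells and epithelia, was 2.02-fold higher. Immunoglobulin probe sets can share sequence among heavy chains, and those of Ighm ranged from 0.25 to 1.53. Jchain, which joins the IgA dimer, had low signals of 50.8 and 86.1. The cytokine Tnfsf13b was at least 1.801-fold higher, and Tnfrsf17, Irf4 and Ccl28 were under the floor in both.

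Cytokines and factors known to induce such genes included a few with higher signals and several at or under the floor. Of 21 compared cytokines and receptors, 4 were higher by 2-fold or more and none 2-fold lower, with a median of 0.39. These were the interleukin-1 receptor Il1r1 (at least 5.87-fold), the cytokine Lif (29.9 and 111), the oncostatin receptor Osmr (348 and 808) and Il1b (48.7 and 102). Il17a, Il6 and Ifng were under the floor in both, and Il17f and Il22 were not analysed here. Of 18 transcription factors and adaptors, 4 were higher by 2-fold or more, with a median of 0.24. They were Cebpd (384 and 1297), Socs3 (374 and 990), Nfkbiz (246 and 580), known to be needed for Lcn2 induction, and Bcl3 (76.8 and 168). The other probe set of Cebpd differed by -0.19 and that of Nfkbiz by 0.16, so for these genes the probe sets disagree.

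Of 18 other genes known to respond to the same cytokines, 9 were higher by 2-fold or more in the EiPS tumours and 1 was lower by 2-fold or more, with a median of 0.92. The acute-phase genes Serpina3n (343 and 2316) and Hp (82.0 and 475) were 6.74-fold and 5.79-fold higher. Cxcl1, which attracts neutrophils, was 3.96-fold higher and Lypd8, a surface protein of the colon, 3.91-fold higher, and the adaptor Tifa was 2.05-fold lower. Of 13 genes for iron and siderophore handling, 2 were higher by 2-fold or more, the haem carrier Hpx (at least 5.79-fold) and the haem-degrading enzyme Hmox1 (3.198-fold). The other 11, including Lrp2, which encodes megalin, a receptor that binds lipocalin 2 (27.5 and 47.6), and Steap3 (44.7 and 32.2), were within 2-fold, and the median of 0.03 turned to -0.10 after quantile normalization. Among 13 proteases and inhibitors related to the WAP proteins, only Klk6, a kallikrein, reached 2-fold (16.2 and 157, at least 6.04-fold higher). Elane, the neutrophil elastase that Slpi blocks, had signals of 45.3 and 29.2, and Ctsg was under the floor in both. Serpinb1a, another inhibitor of elastase, had 1671 and 891, and the epithelial protease Tmprss2 had 243 and 390, with its other probe set at -0.32 on the log2 scale.

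**Figure D4:**
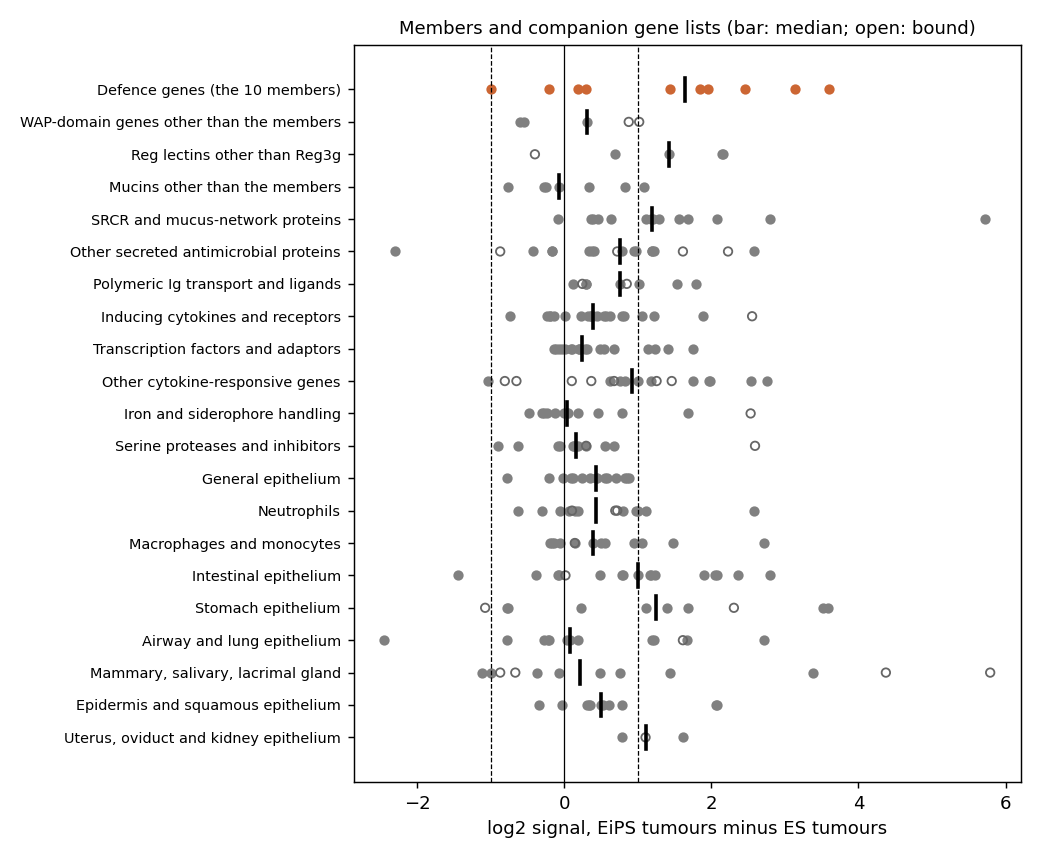
Log2 difference (EiPS tumours minus ES tumours) of every compared gene in the 10 members and in each companion list, with medians as bars, bounds as open circles and 2-fold as dashed lines. The members have a median of 1.64, general epithelial genes 0.42 with none at 2-fold, and neutrophil genes 0.44, which ranged from 0.18 to 0.97 under other settings.

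Markers of cells that make these proteins were read in the same way. All 15 general epithelial markers with a probe set were above the floor in 1 kind of tumour or both, none differed by 2-fold, and their median was 0.42, with a summed signal of 11665 in the ES tumours and 15974 in the EiPS tumours. Prom1, Krt7 and Tjp3 were 1.83-fold, 1.81-fold and 1.78-fold higher, and Marveld2 was 1.72-fold lower. Intestinal markers had 9 of 17 higher by 2-fold or more and 1 lower by 2-fold or more (median 1.01, summed signal 10220 and 18223). Lyz1, the lysozyme of Paneth cells, made up 5703 and 9818 of those sums by an _x_at probe set, and its 3 probe sets ranged from -0.04 to 0.78. Krt20 was 5.13-fold and Guca2a 4.12-fold higher and Fabp2 2.73-fold lower, and Cdx1 was under the floor in both. Stomach markers had 6 of 10 higher by 2-fold or more and 1 lower (median 1.25, summed signal 3309 and 10825), led by Gkn1 (148 and 1773) and Gkn2 (168 and 1926). Their median was 0.67 without probe sets that can match several transcripts, the only kind that Gkn2 and Atp4a have. Gkn1 was read from such a probe set too, but its 2 probe sets differed by 3.54 and 3.59 on the log2 scale. Atp4b was at least 4.95-fold higher and Cblif at least 2.11-fold lower.

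Gland and airway markers went both ways. A list of 12 compared mammary, salivary and lacrimal markers holds Ltf and Wfdc18 themselves. Of the 12, 4 were higher by 2-fold or more, Ltf among them, and 1 was lower (summed signal 4265 and 8021). Ltf made up 1434 and 3901 of those sums and Wfdc18 1955 and 980. Mucl2 and Prol1 were under the floor in the ES tumours and had signals of 1439 and 538 in the EiPS tumours, Pip had 41.3 and 431, and Smr2 was 2.17-fold lower. The milk genes Csn1s1, Csn2, Lalba and Wap were under the floor in both. The list's median of 0.21 turned to -0.07 without probe sets that can match several transcripts and was 0.76 with a floor of 100. Airway and lung markers, which include Reg3g, had 5 of 13 higher by 2-fold or more and 1 lower (summed signal 14114 and 14445). Reg3g made up 2585 and 2231 of those sums. Sftpc (104 and 682) and Sftpb (55.2 and 175) were higher and the secretoglobin Scgb3a2 (1524 and 278) lower, and the median of 0.07 turned to -0.05 with equal medians. Epidermal markers had a median of 0.50 with 2 of 11 higher by 2-fold or more, Krtdap (4.23-fold) and Lor (4.18-fold), while Krt6a and Krt13 were 1.72-fold and 1.52-fold higher (summed signal 11384 and 16525). Of the reproductive tract and kidney markers only 3 of 8 were compared, the oviduct gene Ovgp1 (51.8 and 159), Pax8 (at least 2.15-fold higher) and Lrp2. The part of each kind of epithelium in the members' signals was not tested.

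Lcn2, Ltf and Slpi are also neutrophil products. Of 16 neutrophil markers with a probe set, 14 were compared, 3 were higher by 2-fold or more in the EiPS tumours and none 2-fold lower, with a median of 0.44. The median was 0.97 with a higher floor, from the receptors' 98th percentile, 0.90 with a floor of 100 and 0.18 without probe sets that can match several transcripts. Their summed signal was 879 in the ES tumours and 1712 in the EiPS tumours. S100a8 made up 297 and 581 of those sums and S100a9 55.2 and 331, and both are also counted among the antimicrobial genes. The 3 higher by 2-fold or more were S100a9, Il1r2 (2.17-fold) and Lrg1 (2.01-fold). Some granule genes were dim: Mpo had signals of 26.2 and 28.8, Ngp 21.8 and 42.0 and Camp 5.49 and 42.8. Cxcr2 and Ceacam10 were under the floor in both. Of the 14 compared neutrophil markers, 11 were higher by any amount and 3 lower, beside 56.2% of all genes higher by any amount. The 3 lower were Elane, Itgam and Csf3r, with log2 differences of -0.63, -0.30 and -0.06, and Prtn3 differed by 0.18. The part of neutrophils in the signals of Lcn2, Ltf and Slpi was not tested. Of 13 compared macrophage markers, 9 were higher by any amount and 4 lower, again beside 56.2% of all genes. Their median was 0.39 (summed signal 13567 and 19808). None was 2-fold lower, and 3 were higher by 2-fold or more, Clec4d (35.6 and 233), Msr1 (53.6 and 149) and Cd68 (372 and 778). Lyz2, whose sequence is close to that of Lyz1, was 1.93-fold higher and made up 4103 and 7924 of those sums. The 4 lower were Csf1r (2507 and 2269), Adgre1 (378 and 365), Mrc1 (511 and 456) and Cd14 (237 and 207), all within 2-fold. The other Msr1 probe set above the floor on both arrays differed by -0.28, so its probe sets disagree.

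Genes beside the members on the chromosomes were also read (order from RefSeq, GRCm38.p6, used only for which genes are neighbours). Taking the 2 protein-coding genes on each side of every member, 24 of 40 could be compared, 2 of them were higher by 2-fold or more, near the 5.79% of all genes, and none was 2-fold lower (3.05% of all genes), with a median of 0.11. The 2 were Reg1 beside Reg3g and Wfdc21 beside Wfdc18, both family relatives. Slpi and Wfdc2 lie on the same stretch of chromosome 2 with 7 protein-coding genes between them, 6 of which have a probe set. Of these, Sdc4 had the largest difference, 0.96 (signals of 1300 and 2533), while Slpi differed by 3.13 at one end of the stretch and Wfdc2 by 0.19 at the other. Beside Lcn2, Ciz1 differed by 0.26 and Ptges2 by -0.55, and beside Pigr the IgA and IgM receptor gene Fcamr was near the floor, with signals of 20.1 and 27.0.

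With 2 arrays, likeness between genes is only closeness of both signals. By the distance between the pairs of log2 signals, the genes nearest to Lcn2 were Meg3 (452 and 4362, distance 0.47) and Mobp (426 and 3225, distance 0.48), and those nearest to Wfdc18 were Chrna1 (1985 and 942, distance 0.060) and Sirt2 (1862 and 962, distance 0.075). These distances set signals of different probe sets side by side and describe the 2 arrays only.

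Each member was also read under other treatments of low signals, of the scaling and of the probe sets. None of the 10 changed direction, although the floors from the receptors, or no floor, could not change the value of any member. Slpi had the widest range of values.

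**Figure D5:**
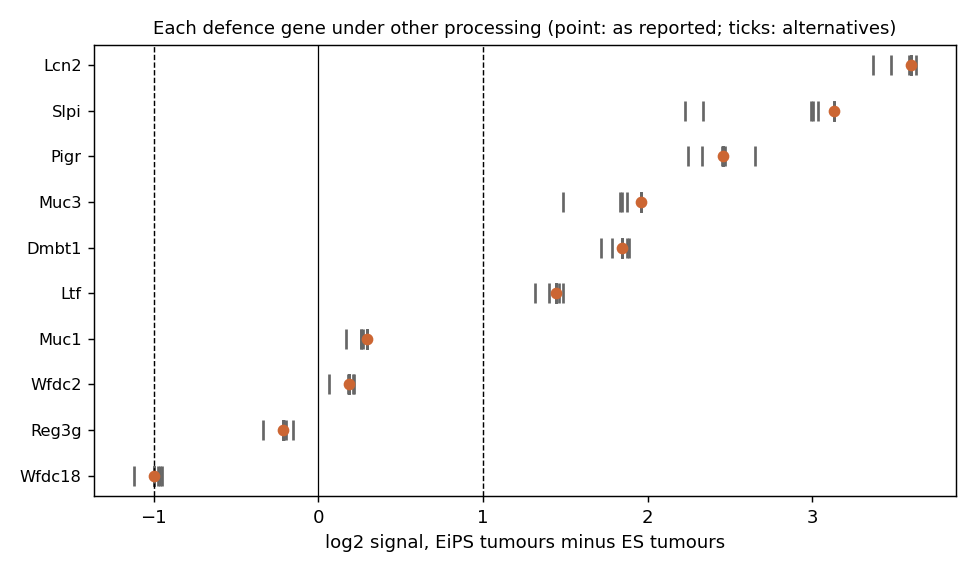
Log2 difference of each member as reported (points) and under the other processing settings (ticks), with 2-fold as dashed lines. Slpi ranges from 2.22 to 3.13 and Lcn2 from 3.37 to 3.63, and the 6 members above the upper 2-fold line stay above it in every setting that gives them a value.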

How the data were processed

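The authors deposited 1 linear intensity per probe set and array, made with Affymetrix Expression Console and MAS5 per the submitters' processing notes, with no settings stated there. Both arrays had a 2% trimmed mean of 500.2, so the deposited scaling was kept, and differences are relative. Arrays are 1 per group, which limits precision, and no test was run. Of 22690 probe sets, 20380 had 1 gene symbol (20351 updated by Entrez identifier through RefSeq), 691 several, 1555 none and 64 were controls. Each gene was read from the brightest of its single-symbol probe sets (mean log2 over both arrays). The floor was set from 72 probe sets for olfactory, vomeronasal, taste and trace amine receptors. Signals under it were set to it, and genes under it on both arrays were not compared. Named genes were all members, up to 4 genes per list with the largest absolute difference, the largest opposite one past 2-fold, defining genes under the floor on both arrays (named as such, not all of them), and the 2 genes nearest to the highest and lowest members. Jchain, Mpo, Ngp, Camp and the neighbours Sdc4, Ciz1, Ptges2 and Fcamr, and Xbp1 and Lyz1, were named after their values were seen. So were Csf1r, Adgre1, Mrc1, Cd14, Prtn3, Itgam, Csf3r, Cd5l, Lgals3bp, Atp4a, Fcgrt, Ccr10 and Prdm1. The same holds for Lgals4, Tff2, Bpifa1, Sftpd and Hnf4a. Members, lists and rules were chosen with earlier results of these data known. The procedure was tested on simulated data with Python 3.11.15.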

Additional observations from a re-analysis of the deposited data

How the results depend on the processing

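Other treatments of low signals were floors from the 75th and the 98th percentile of the receptors, a fixed floor of 100, none at all, and log2(signal + 64). Arrays were also rescaled by quantiles, to equal medians or by loess (span 0.4). Probe sets of a gene were averaged, or those ending in _s_at, _x_at or _a_at left out, which gave no value for Lcn2, Dmbt1 and Wfdc18. Over the members, 94 of the values obtained moved by less than the SD between probe sets and 3 by more: Slpi was 2.33 with a floor of 100 and 2.22 with log2(signal + 64), and Muc3 1.48 with the latter. Many of the 94 could not move. The lowest member signal, 57.6, was above the highest receptor floor of 49.0, so these floors or none left every member unchanged. The floor of 100 could change only Slpi, and averaging only Pigr. Leaving out shared probe sets changed no member that kept a value. No member changed direction. The median over the members ranged from 1.44 to 1.67. With equal medians, which shifted the median of all genes by -0.12 on the log2 scale, 1 member, Wfdc18, was lower by 2-fold or more, against 0 as reported.

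Of all genes, 634 were higher and 334 lower by 2-fold or more, and 485 and 431 after quantile normalization, 506 and 458 with equal medians. The count of higher genes was 305 with a floor of 100, 1249 with no floor and 246 with log2(signal + 64), and that of lower genes 720 with no floor and 187 with log2(signal + 64). List medians turned sign for other WAP-domain genes (-0.12 with a floor of 100, -0.34 with no floor), other mucins (0.043 with a floor of 100, 0.21 with probe sets averaged), iron handling (-0.10 after quantile normalization, -0.095 with equal medians, -0.067 after loess), airway (-0.053 with equal medians) and gland markers (-0.069 without shared probe sets). Without turning, 11 list medians moved by more than that SD, those of the Reg, Pigr-ligand, neutrophil, stomach, gland and reproductive tract lists, and 180 moved by less. The cause was not tested. No paired analysis was possible because each group has 1 array, and none could be left out. Low signals, under about 100, limit the folds of Slpi and of the dim relatives.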
